A study of Mus musculus with 3 samples.

Results

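The integrin chains and leukocyte adhesion genes described here are 34 of the 22457 genes counted in RNA sequencing libraries of mouse regulatory T cells (Treg cells), a CD4 T cell lineage that is defined by Foxp3 and keeps immune responses in check. They were chosen by name: 18 integrin alpha chains, 8 integrin beta chains, and 8 genes that activate integrins, serve as their ligands or act in leukocyte adhesion (Selplg, Icam1, Icam2, Tln1, Fermt3, Pecam1, Cd44 and Cd47). All 34 had a row in the deposited tables.

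Poly(A) RNA of primary regulatory T cells from adult male mouse, aged 4 months, was sequenced as technical replicate libraries 1, 2 and 3 of 1 biological replicate. The labels name no strain, genotype, treatment, tissue of origin or sorting markers, so the 3 libraries form 1 group and no conditions can be compared. The totals were 3316275, 3079004 and 2782259 counts. Every SD below is over these 3 libraries, and every p-value compares libraries of 1 biological sample, so neither measures the spread between animals.

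Integrins are surface receptors made of 1 alpha and 1 beta chain, and a chain generally reaches the cell surface only as part of such a heterodimer. On resting lymphocytes they are held in a bent, low-affinity form, and binding of talin and kindlin to the tail of the beta chain from inside the cell switches them to the extended form that binds ligand. In T cells the β2 integrin LFA-1 (Itgal with Itgb2) binds ICAM proteins on other cells, α4β1 binds VCAM-1 and fibronectin, α4β7 binds MAdCAM-1 of gut vessels, and αEβ7 (CD103, the product of Itgae with Itgb7) binds E-cadherin of epithelia. The αvβ8 integrin releases active TGF-beta from its latent complex, a step known from Treg cells as well as dendritic cells.

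Levels are given as counts per 1000000 counts of the library (CPM) when a gene is compared with itself between libraries. Levels of different genes are compared only as CPM per kilobase of coding sequence, since a longer transcript yields more fragments. Detection means that all 3 libraries reached 1 CPM. At these totals a count of 0 allows up to 0.905, 0.974 and 1.08 CPM (3 counts), a limit that covers counting error only. Libraries were compared by a chi-square test that allows for Poisson noise alone, with Benjamini-Hochberg adjusted p-values over all 10043 genes tested, of which 22.7% passed 0.05.

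The cells' label was checked first. Foxp3 had 448, 447 and 407 counts (142 ± 6.17 CPM), Cd4 578 ± 42.5 CPM and Cd3e 403 ± 29.7 CPM, and all 10 Treg and CD4 T cell markers were detected. Markers of other cells were present and not equal between libraries. The summed level of 8 B cell markers, 7 of them detected, was 59.4, 149 and 180 CPM in libraries 1, 2 and 3. Cd79b alone had 148, 165 and 204 of their 197, 458 and 500 counts. That of 8 monocyte and macrophage markers, 3 of them detected, was 21.1, 57.2 and 29.1 CPM. Of 2 CD8 T cell markers, Cd8b1 was detected, with 71, 62 and 89 counts, and Cd8a had 0, 0 and 1. Of 4 epithelial markers only Krt18 was detected, with 12, 16 and 28 counts. These libraries hold RNA of many cells, so fewer cells of a type and less RNA per cell cannot be told apart.

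Stretches just upstream of 4 member genes are shown because the genes encode chains or an activator that stand high in these cells: the α4 chain, its partner chains β1 and β7, and kindlin-3 (Fermt3). The sequences are from RefSeq on GRCm38.p6, read 5′ to 3′ on the strand of the gene, and end 1 base before the start of the gene in GENCODE. Capitals mark a RUNX core (TGTGGT, on the minus strand read as ACCACA), or a GC box known to bind Sp and Klf factors (GGGCGG), searched on both strands.
Itga4, chr2:79255176-79255425, plus strand: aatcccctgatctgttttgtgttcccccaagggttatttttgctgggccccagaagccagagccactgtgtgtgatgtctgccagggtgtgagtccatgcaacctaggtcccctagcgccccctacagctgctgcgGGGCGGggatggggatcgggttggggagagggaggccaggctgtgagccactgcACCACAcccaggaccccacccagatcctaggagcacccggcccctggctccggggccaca
Itgb1, chr8:128685404-128685653, plus strand: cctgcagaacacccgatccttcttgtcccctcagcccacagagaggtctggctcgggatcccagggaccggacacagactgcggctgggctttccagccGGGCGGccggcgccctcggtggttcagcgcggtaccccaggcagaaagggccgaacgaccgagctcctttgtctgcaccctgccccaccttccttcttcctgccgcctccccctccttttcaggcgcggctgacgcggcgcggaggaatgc
Itgb7, chr15:102231945-102232185, minus strand: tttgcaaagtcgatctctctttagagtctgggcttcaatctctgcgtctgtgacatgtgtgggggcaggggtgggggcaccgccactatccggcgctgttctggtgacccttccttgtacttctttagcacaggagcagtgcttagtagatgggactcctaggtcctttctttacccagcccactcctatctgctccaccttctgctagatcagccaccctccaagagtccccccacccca
Fermt3, chr19:7019470-7019719, minus strand: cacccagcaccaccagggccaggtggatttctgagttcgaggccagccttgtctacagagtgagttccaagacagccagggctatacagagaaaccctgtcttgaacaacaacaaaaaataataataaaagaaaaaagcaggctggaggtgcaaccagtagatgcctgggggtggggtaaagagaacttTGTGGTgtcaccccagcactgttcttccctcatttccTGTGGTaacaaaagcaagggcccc
The Itga4 stretch held a RUNX core on the minus strand, starting 60 bases before its end, and a GC box starting 114 bases before it. The Fermt3 stretch held 2 RUNX cores on its own strand, starting 61 and 24 bases before the end. The Itgb1 stretch held a GC box, 151 bases before the end, and the Itgb7 stretch held neither motif. Of the 34 members, 23 had an entry in the promoter table, with 26 promoters of 250 bases before to 50 bases after the start in RefSeq. Motifs were counted only in the 250 bases before the start. There a RUNX core stood in 3 of the 26 (11.5%) and in 14% of all 32851 promoters. The GC box stood in 10 (38.5%) and in 32.7%. An ETS core (CGGAAG) stood in 5 (19.2%, against 13.6% of all). The forkhead core TGTTTAC and the TATA box letters TATAAA stood in 0 of the 26, against 3.17% and 12.4% of all. A match is a description of the letters and not of binding.

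Of the 26 integrin chains, 16 were detected: 11 of 18 alpha chains and 5 of 8 beta chains. All 8 other members were detected. Of all 22457 genes, 10611 were detected. Per coding kilobase, the detected members ran from 525 ± 22.9 CPM for Selplg to 1.40 ± 0.942 CPM for Itga1 (mean ± SD, n = 3 libraries). The median over all 34 members was 19.1 CPM per coding kilobase, beside 13.5 for the 15171 genes with any count. Together the members took 0.920%, 0.964% and 0.859% of all counts in libraries 1, 2 and 3.

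**Figure D1:**
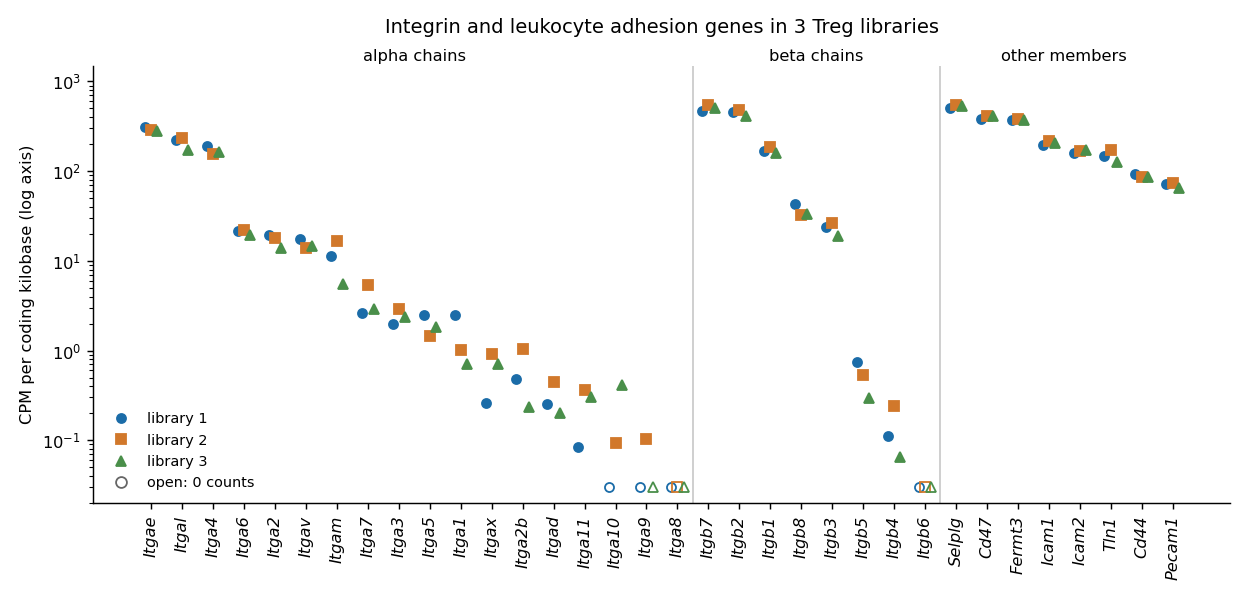
Level of each of the 34 members in each library, as CPM per coding kilobase on a log axis. Vertical lines divide alpha chains, beta chains and other members, and open symbols mark a count of 0. Itgae, Itgal and Itga4 stand apart above the other alpha chains, Itgb7, Itgb2 and Itgb1 above the other beta chains, and the 8 other members lie between 70.1 and 525 CPM per coding kilobase on average.

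The β7 chain was the highest integrin chain. Itgb7 (chr15:102215995-102231944, minus strand, GRCm38) had 1123, 1308 and 1212 CPM in libraries 1, 2 and 3, or 502 ± 38.4 CPM per coding kilobase. It was lowest in library 1 and highest in library 2 (chi-square test of homogeneity between libraries, adjusted p = 1.11e-08). Its alpha partner Itgae (chr11:73090583-73147446, plus strand) had 1074, 996 and 970 CPM, or 289 ± 15.5 CPM per coding kilobase, and was highest in library 1. Its other alpha partner, Itga4 (chr2:79255426-79333123, plus strand), had 596, 481 and 513 CPM, or 171 ± 19.2 CPM per coding kilobase, and was also highest in library 1. Both partners of β7 were thus highest in the library where Itgb7 was lowest.

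Set side by side, Itgb7 exceeded Itgae 1.73-fold and Itga4 2.94-fold per coding kilobase. With the length of all exons these became 1.98-fold and 11.6-fold. The log2 ratio of alpha to beta chain was -0.79 ± 0.17 for αEβ7 and -1.56 ± 0.27 for α4β7. Summed, the alpha partners of Itgb7 reached 461 ± 33.6 CPM per coding kilobase, and their log2 ratio to Itgb7 was -0.12 ± 0.21, so the difference was smaller than the spread between libraries, and ran from -0.24 to -0.04 with a library left out. Itgae made up 62.9% ± 1.64 of that sum. With the length of all exons in place of the coding length the log2 ratio was -0.76.

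The β2 chain was next. Itgb2 (chr10:77530252-77565708, plus strand) had 1058, 1116 and 960 CPM, or 452 ± 33.99 CPM per coding kilobase, with library 3 lowest (chi-square test, adjusted p = 1.49e-06). Itgal (chr7:127296260-127335138, plus strand), which encodes the alpha chain of LFA-1, had 798, 848 and 620 CPM, or 210 ± 33.2 CPM per coding kilobase. Library 3 was again lowest, and the highest library exceeded it 1.37-fold (chi-square test, adjusted p = 1.34e-21). Itgb2 exceeded Itgal 2.17-fold per coding kilobase, with a log2 ratio of Itgal to Itgb2 of -1.12 ± 0.13 and the same sign in all 3 libraries. With the length of all exons the excess was 3.00-fold.

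Itgal made up 94.7% ± 1.79 of the summed level of the 4 alpha partners of Itgb2. The remainder was almost all Itgam, the alpha chain of the myeloid integrin Mac-1 (chr7:128062640-128118491, plus strand), which had 39.5, 58.8 and 19.4 CPM. Library 2 held 3.03 times the level of library 3, the widest spread of any detected member other than Itga1. Its level was 11.2 ± 5.62 CPM per coding kilobase, and Itgal exceeded it 20.4-fold. The monocyte and macrophage marker sum was also highest in library 2 (57.2 CPM) but lowest in library 1 (21.1 CPM), and its part in the level of Itgam was not tested. In GENCODE M21, 96.0% of the 31-base words of the Itgam coding sequence also occur in the overlapping gene model Gm49368, which is not analysed here, and 0% occur in a transcript of any other gene analysed here. How the authors' counting treated reads from this overlap is not given in the sources used here.

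The last 2 alpha partners of β2 were not detected. Itgax, which encodes CD11c and marks dendritic cells and macrophages, had 3, 10 and 7 counts, and Itgad had 3, 5 and 2. The 2 coding sequences resemble each other: 14.7% of the 31-base words of Itgax occur in Itgad. Of 7 dendritic cell markers 1 was detected, with a summed level of 5.43, 21.4 and 9.70 CPM and Clec9a at 0 counts.

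The 4 alpha chains of β2 integrins lie on the same strand of chromosome 7, with Itgam starting 728 kb beyond the end of Itgal, Itgax 11.1 kb beyond Itgam and Itgad 3.72 kb beyond Itgax. From the start of Itgal to the end of Itgad the table holds 40 genes, these 4 included, of which 28 were detected. Itgal, at one end of the stretch, stood at 210 CPM per coding kilobase, and the 3 adjoining chains at the other end at 11.2, 0.634 and 0.300. Genes between them reached 590 CPM per coding kilobase (Pycard, an inflammasome adaptor).

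**Figure D2:**
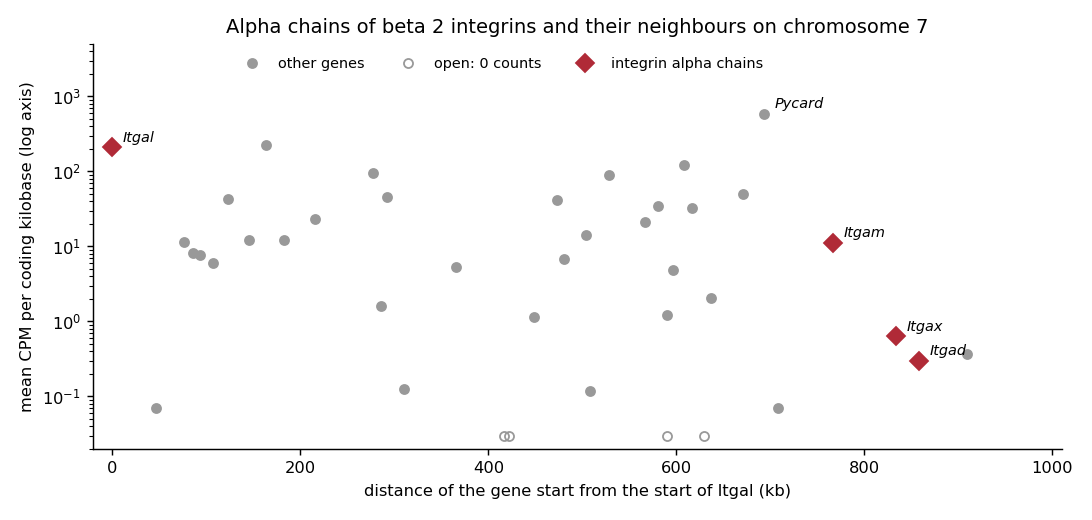
Mean level over 3 libraries, as CPM per coding kilobase on a log axis, of the genes from Itgal to Itgad on chromosome 7, by distance of the gene start from the start of Itgal in kilobases; diamonds are the 4 alpha chains of β2 integrins, circles the other genes, and open circles genes with 0 counts. Itgal stands at 210, and Itgam, Itgax and Itgad fall from 11.2 to 0.300 at the far end.

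The β1 chain has the most partners. Itgb1 (chr8:128685654-128733200, plus strand) had 402, 440 and 385 CPM, or 171 ± 11.9 CPM per coding kilobase, with library 3 lowest (chi-square test, adjusted p = 0.0171). Itgb7 exceeded it 2.94-fold and Itgb2 2.65-fold per coding kilobase. Of its 12 known alpha partners 8 were detected. Per coding kilobase Itga4 lay close to Itgb1, with log2 ratios of 0.20, -0.24 and 0.04 in libraries 1, 2 and 3, but with the length of all exons Itgb1 exceeded it 2.65-fold. Per coding kilobase the log2 ratio of every other partner to Itgb1 averaged -3.02 or lower.

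Itga6, which with β1 forms a laminin receptor, had 70.3, 73.1 and 62.9 CPM, or 21.0 ± 1.61 CPM per coding kilobase. Itga2, whose product with β1 binds collagen, had 68.1, 64.0 and 49.6 CPM, or 17.1 ± 2.75 CPM per coding kilobase. The libraries of Itga6 were not separated by the chi-square test (adjusted p = 0.483), and Itga2 was lowest in library 3 (adjusted p = 0.0471). Itga2 protein is also carried by NK cells. The 6 NK cell markers, 1 of them detected, summed to 55.2, 44.5 and 46.7 CPM. The 1 detected, Gzma, had 179, 126 and 125 of their 183, 137 and 130 counts. Klrb1c had 4, 3 and 3 counts, Ncr1 0, 3 and 2, and Klra4 0. The part of NK cells in the level of Itga2 was not tested.

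Itga7 and Itga3, which encode laminin-binding alpha chains, Itga5, the chain of the main fibronectin receptor, and Itga1, a collagen-binding chain, were low. Itga7 had 30, 56 and 28 counts, Itga3 21, 29 and 21, Itga5 26, 14 and 16, and Itga1 29, 11 and 7. Per coding kilobase they stood at 3.64 ± 1.46, 2.42 ± 0.485, 1.91 ± 0.527 and 1.40 ± 0.942 CPM. The exact 95% Poisson interval of Itga1 was 5.86 to 12.6 CPM in library 1 and 1.01 to 5.18 CPM in library 3, which do not overlap. Itga1 and Itga2 are neighbours on chromosome 13, 21.0 kb apart on the same strand, and Itga2 exceeded Itga1 14.02-fold per coding kilobase and 36.5-fold with the length of all exons.

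Summed, the alpha partners of Itgb1 reached 235 ± 22.6 CPM per coding kilobase, of which Itga4 was 72.9% ± 2.26, and their log2 ratio to Itgb1 was 0.46 ± 0.19. This excess of alpha chains did not hold under another choice of length: with all exons it was -0.67. It also counts Itga4, Itga6 and Itgav fully for β1, although Itga4 also pairs with β7, Itga6 with β4 and Itgav with β3, β5, β6 and β8. Without these shared chains the log2 ratio was -2.67. Seen from the alpha chain, the 2 beta partners of Itga4 summed to 673 ± 47.4 CPM per coding kilobase, 3.94 times Itga4 itself, or 14.2 times with the length of all exons.

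**Figure D3:**
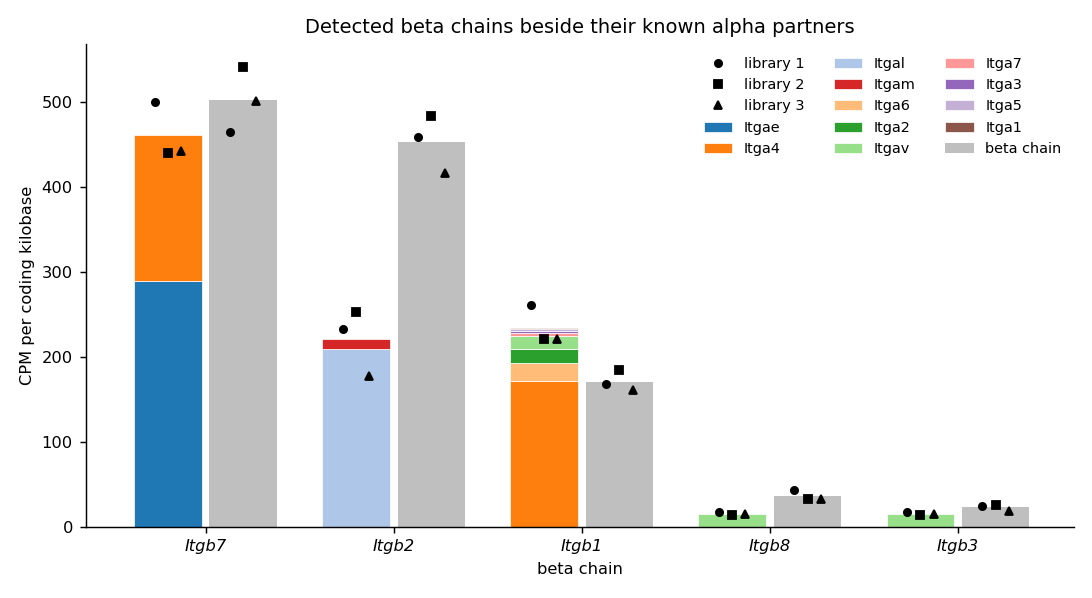
Level of each of the 5 detected beta chains (grey bars) beside the stacked levels of its alpha partners (coloured bars), as the mean CPM per coding kilobase over 3 libraries, with each library's sum as a point. Itga4 and Itgav are drawn at each of their beta chains. For Itgb7 the stack (461) and the beta chain (502) are close, for Itgb2 the beta chain (452) is 2.06 times the stack, and for Itgb1 the stack (235) is above the beta chain (171).

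The αv integrins were lower. Itgav (chr2:83724397-83806916, plus strand) had 55.2, 43.5 and 46.4 CPM, or 15.4 ± 1.94 CPM per coding kilobase. Itgb8 (chr12:119158022-119238802, minus strand), its partner in the integrin that releases TGF-beta, had 100.1 CPM in library 1 and 74.7 and 76.6 CPM in libraries 2 and 3, or 36.4 ± 6.16 CPM per coding kilobase. Itgb8 and Itgav were each highest in library 1, and Itgb8 differed between libraries (chi-square test, adjusted p = 0.00502) while Itgav did not pass (adjusted p = 0.211). Itgb8 exceeded Itgav 2.35-fold per coding kilobase, with a log2 ratio of Itgav to Itgb8 of -1.23 ± 0.07, the smallest SD of the αv pairs. With the length of all exons the excess was 1.68-fold.

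Itgb3 (chr11:104608000-104670476, plus strand), the β chain of the vitronectin receptor αvβ3 and of the platelet fibrinogen receptor αIIbβ3, had 57.0, 61.7 and 44.9 CPM, or 23.1 ± 3.67 CPM per coding kilobase (chi-square test, adjusted p = 0.0743). It exceeded Itgav 1.49-fold per coding kilobase, with a log2 ratio of Itgav to Itgb3 of -0.58 ± 0.29, and 2.05-fold with the length of all exons. Itga2b, its partner on platelets, was not detected, with 5, 10 and 2 counts. The 8 megakaryocyte and platelet markers, 0 of them detected, summed to 1.51, 1.95 and 2.16 CPM, with Gp1bb, Gp6 and Treml1 at 0 counts in all 3 libraries.

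Of the 24 known heterodimers formed by these chains, 14 had both chains detected and 10 had 1 chain detected. The 14 are 8 of the 12 β1 pairs, αLβ2, αMβ2, αvβ3, αvβ8, αEβ7 and α4β7. Both chains of a pair stood above 100 CPM per coding kilobase in 4 of them: αEβ7, α4β7, αLβ2 and α4β1. Per kilobase of all exons Itga4 stood at 37.9 CPM, so α4β7 and α4β1 did not pass 100 on that scale. Itgav had 3 of its 5 beta partners detected. A transcript of each chain does not show that the pair is at the cell surface, which was not measured.

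Among the 10 members not detected, Itga8 and Itgb6, which encode chains of epithelial and stromal integrins, had 0 counts in all 3 libraries. Itga9 had 0, 1 and 0 counts, Itga10 0, 1 and 4, and Itga11 1, 4 and 3; the last of these encode collagen-binding chains of cartilage and fibroblasts. Itgb4, the β chain of epithelial hemidesmosomes, had 2, 4 and 1 counts, and Itgb5, a further αv partner, had 6, 4 and 2. None of the 10 had enough counts for the test between libraries.

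Talin and kindlin bind the beta chain tail. Tln1 (chr4:43531519-43562691, minus strand), the talin of blood cells and most tissues, had 1136, 1315 and 958 CPM. Library 2 was highest and library 3 lowest, a spread of 1.37-fold (chi-square test, adjusted p = 4.68e-33). Fermt3 (chr19:6998958-7019469, minus strand), the kindlin of blood cells, had 736, 767 and 733 CPM, and its libraries were not separated by the same test (adjusted p = 0.393). Per coding kilobase Fermt3 stood at 374 ± 9.58 CPM and Tln1 at 149 ± 23.4, so that Fermt3 exceeded Tln1 2.53-fold. With the length of all exons this difference shrank to 1.12-fold.

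The paralogs of these activators were near 0. Tln2 had 9, 2 and 2 counts, Fermt2 0, 1 and 0, and Fermt1 0 in all 3 libraries. Of a list of 19 other genes of inside-out integrin activation, 16 were detected, with a median of 120 CPM per coding kilobase. Its 3 genes with the most CPM, a measure that also grows with length, were the adaptors Fyb (ADAP) and Skap1 (SKAP55), which link the T cell receptor to integrins, and Stk4 (the kinase Mst1). Per coding kilobase Skap1 stood at 535 ± 34.8 CPM, above Fyb at 359 ± 10.3 and Stk4 at 214 ± 14.7. On that scale another gene of the list, Rap1b, at 238 ± 37.2, had a higher mean than Stk4.

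Selplg and Cd44 act in rolling and tethering. Selplg (chr5:113818536-113832644, minus strand), which encodes the selectin ligand PSGL-1, had 625, 679 and 669 CPM, or 525 ± 22.9 CPM per coding kilobase, the highest mean of the 34 on that scale. Its range over libraries overlapped that of Itgb7, the next in order, and with the length of all exons Selplg ranked 4 and Itgb7 ranked 1. Cd44, the hyaluronan receptor that rises on antigen-experienced T cells, had 219, 201 and 202 CPM, or 88.6 ± 4.30 CPM per coding kilobase, and Selplg exceeded it 5.93-fold.

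Icam1 and Icam2 encode ligands of LFA-1 and were present in the same RNA as its chains. Icam1 had 318, 348 and 331 CPM, or 206 ± 9.23 CPM per coding kilobase, and Icam2 133, 138 and 143 CPM, or 166 ± 6.10. Icam1 exceeded Icam2 1.24-fold per coding kilobase and 1.05-fold with the length of all exons. Neither differed between libraries (chi-square test, adjusted p = 0.261 and 0.706). Ligands of the other main T cell integrins were low. The ligand of α4β7, Madcam1, had 2, 1 and 1 counts, the ligand of αEβ7, Cdh1, had 5, 2 and 4, and the ligand of α4β1, Vcam1, had 57, 90 and 74 counts, or 24.3 ± 6.33 CPM.

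Cd47, the inhibitory ligand that phagocytes read as self and that also associates with integrins, had 392, 420 and 421 CPM, or 401 ± 15.8 CPM per coding kilobase. Pecam1, which encodes the homophilic receptor CD31 of leukocytes, platelets and endothelium, had 159, 160 and 142 CPM, or 70.1 ± 4.56 CPM per coding kilobase. Of the 7 endothelial markers 0 were detected. They summed to 1.81, 1.30 and 2.52 CPM, with Tek, Emcn, Tie1 and Eng at 0 counts.

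In the order of the 24 detected members per coding kilobase, 14 of the 23 neighbouring pairs had ranges over libraries that overlapped. The ranges over libraries did not overlap between Itgb2 and Cd47, Fermt3 and Itgae, Itgae and Itgal, Icam1 and Itga4, Tln1 and Cd44, Cd44 and Pecam1, Pecam1 and Itgb8, Itgb8 and Itgb3, and Itgam and Itga7. The order rests on the length used. Per kilobase of all exons Itgae (221 CPM) stood above Fermt3 (129), and Itgb3 (9.24) above Itgb8 (7.58). The other neighbours overlapped per coding kilobase, among them Itga4, Itgb1, Icam2 and Tln1, which followed each other between 171 and 149 CPM per coding kilobase. Within each library, 6 of the 14 kept their order in all 3: Selplg over Itgb7, Itgb7 over Itgb2, Cd47 over Fermt3, Itga6 over Itga2, Itga7 over Itga3 and Itga5 over Itga1.

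The wider adhesion pathway was described with 6 lists holding 94 other measured genes, of which 69 were detected. The list of 16 integrin ligands and counter-receptors stood lowest, with 6 detected and a median of 0.403 CPM per coding kilobase; its highest member per coding kilobase, Lrrc32, which encodes GARP, the Treg protein that holds latent TGF-beta at the surface for αvβ8 to act on, had 284, 362 and 307 counts, or 52.5 ± 8.42 CPM per coding kilobase. Tgfb1 had 32, 31 and 32 counts, or 8.89 ± 0.830 CPM per coding kilobase, and F11r had 0, 1 and 0 counts. Among 16 measured other leukocyte adhesion receptors 13 were detected, with a median of 181 CPM per coding kilobase, and Esam lowest at 1, 1 and 0 counts. Those with the most CPM, a measure that also grows with length, were Cd6, Cd2 and Cd82. Per coding kilobase Cd2 stood at 673 ± 56.2 CPM, Cd82 at 631 ± 34.8 and Cd6 at 462 ± 23.6. Other genes of the list stood above Cd82 or Cd6 on that scale.

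Downstream of the integrins, 21 of 26 genes of focal adhesion and outside-in signalling were detected, with a median of 51.6 CPM per coding kilobase. Highest per coding kilobase were the actin regulator Coro1a at 693 ± 58.2 CPM, the Rac activator Dock2 at 320 ± 27.3 and the actin crosslinker Flna at 251 ± 40.3, while Parva, Parvb and Lims2 had 0 counts. Of 5 linkers of CD44 to the cell cortex 4 were detected: Msn at 562 ± 11.4 and Ezr at 254 ± 21.03 CPM per coding kilobase were highest, followed by Rdx at 107 ± 4.38, and Ank1 was lowest with 1, 2 and 4 counts. Among 12 selectins and selectin ligand enzymes 9 were detected, with Tpst2, a sulfotransferase that acts on PSGL-1, at 155 ± 27.5 CPM per coding kilobase, Fut7, a fucosyltransferase of selectin ligands, at 50.03 ± 11.1, and Fut4 at 0 counts.

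**Figure D4:**
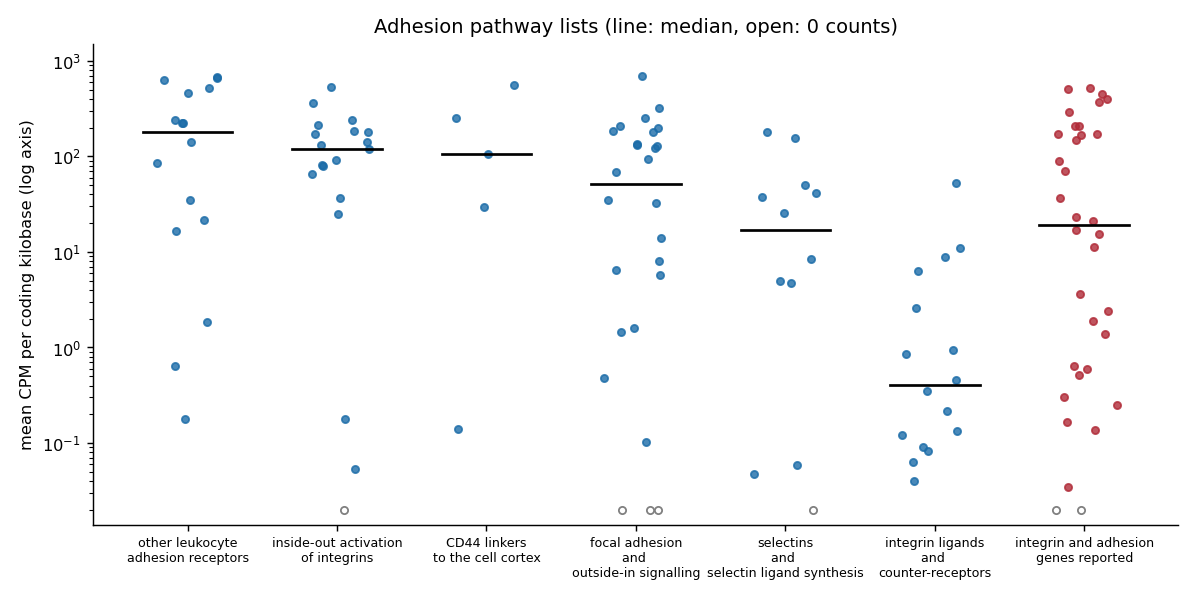
Mean level over 3 libraries, as CPM per coding kilobase on a log axis, of every measured gene of the 6 pathway lists and of the 34 members, with a line at the median and open circles for genes with 0 counts. The ligand list has the lowest median (0.403) and the list of other adhesion receptors the highest (181), with the 34 members at 19.1.

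Of the 24 members with 30 or more summed counts, 12 differed between libraries by the chi-square test at an adjusted p under 0.05: 11 of 16 integrin chains and, of the 8 other members, Tln1. Over all 10043 genes tested this share was 22.7%. Without library 1, 2 or 3 the count of members was 7, 10 and 7. When the scatter among all genes was used instead, edgeR's quasi-likelihood test of each library against the other 2 called 1 member, Itgam, higher in library 2 by 0.98 on the log2 scale (adjusted p = 0.0214), with 0.438% of all genes called in any library. By that test 9 of the 24 members had an unadjusted p under 0.05 in any library, beside 14.1% of all genes, and DESeq2 called 0 members.

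Library 3 was lowest for 8 of the 12 members and highest for 0. How often library 3 was lowest or highest among all genes called is not given here. Its level relative to the mean of the other 2 moved with coding length over all genes: the median log2 ratio was 0.13 for coding sequences under 600 bases and -0.08 for those from 2400 to 4800 bases. All 12 tested members in the latter class lay below 0, with a median of -0.15, though Itgb7 only just, at -0.004. The share of all genes of that length below 0 is not given here. The quartiles of all 1687 genes of that length were -0.27 and 0.09. Of these 12 members, 8 were among the 12 that differed, where 35.7% of all 1687 genes did. Tln1, with a coding length of 7623 bases, stood at -0.35, Itgal at -0.41 and Itgam at -1.34. The part of coding length in the members' differences was not tested.

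The spread also moved with count density. The median ratio of raw counts in library 1 to library 3 was 1.20 for genes under 0.2 counts per coding base, 1.07 for those from 1 to 1.8 and 1.02 for those at 1.8 or more, where the library totals stood at 1.19. Itgb7 (1.53 counts per coding base), Itgb2 (1.39), Selplg (1.60), Fermt3 (1.14) and Cd47 (1.22) fall in the class from 1 to 1.8, and 0 members in the highest. In CPM, library 1, which has the largest total, was lowest for Itgb7, Selplg and Cd47 and library 3 for Itgb2 and Fermt3. The part of count density in these differences was not tested.

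**Figure D5:**
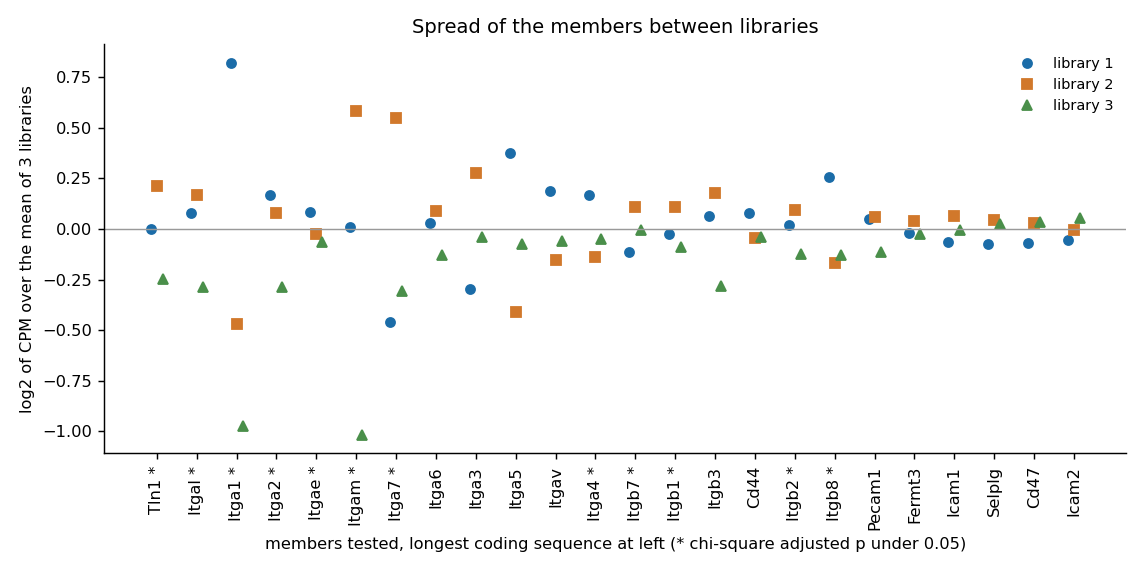
Log2 of each library's CPM over the mean of the 3 libraries for the 24 members tested, ordered from the longest coding sequence at the left to the shortest at the right, with an asterisk at the 12 that differed by the chi-square test. Library 3 (triangles) lies below 0 for most long members, with Itgam and Itga1 near -1, and the short members at the right stay near 0.

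Where 2 genes overlap on opposite strands, the counts may hold reads of the partner, since use of the strand is not given in the sources used here. Among the detected members this concerns 8.04% of the exon length of Itga4, which overlaps Cerkl (170, 144 and 157 counts), 3.67% of Tln1, which overlaps Creb3 (615, 626 and 632 counts), and 1.54% of Fermt3, which overlaps Trpt1 (70, 56 and 61 counts). It also concerns 11.7% of Icam1 and 5.90% of Itgav, whose partners are not analysed here, and 0.111% of Itga7, whose partner Mettl7b had 0 counts. Of the members not detected, Itgad, Itgb4 and Itga8 have such overlaps, of 12.4%, 7.66% and 5.05%.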

How the data were processed

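The authors deposited 1 table of whole-number counts per gene for each library, without scaling. Per the notes deposited with the tables, reads were aligned to mm10 with the GENCODE M4 annotation. Which programs aligned and counted the reads, whether strand was used and how duplicates were treated is not given in the sources used here. The depth of 2782259 to 3316275 counts per library sets 1 count at 0.302 to 0.359 CPM.

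Symbols, coordinates and coding lengths (the longest coding sequence of a gene) came from GENCODE M21 on GRCm38, the assembly also called mm10, and 262 identifiers had no match. Levels are CPM of the library total, and ratios between chains use CPM per coding kilobase within each library. Each gene with 30 or more summed counts was compared between libraries by a chi-square test of its counts in proportion to the library totals, with Benjamini-Hochberg adjustment over all 10043 genes and a threshold of 0.05. Library 3 was set against the other libraries on log2(CPM + 0.1). Intervals are exact 95% Poisson intervals. Alternatives were TMM and DESeq2 size factors, other filters, exon length, other partner rules, edgeR 4.0.16 quasi-likelihood and DESeq2 1.42.0 Wald tests (R 4.3.3) of each library against the others, and leaving out each library. The chi-square and edgeR scripts were tested on simulated data. The members, pairs and lists were chosen with earlier results of these data known. Every member is named, and of each pathway list the 3 highest and the lowest genes by mean CPM, with the paralogs and ligands of members, except some genes that are not reported here. Cd99 was not analysed here.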

Additional observations from a re-analysis of the deposited data

How the results depend on the processing

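The count of 24 members detected was 24 with TMM, 20 at 10 CPM, 30 at any count, and 24 to 26 when a library was left out. The count of 14 pairs ran from 10 to 20 over the same settings. Of the 12 members that differed between libraries, all remained with TMM or DESeq2 size factors, which added Itgb3. The count was 11 without a filter (14.04% of all genes), 10 of 20 tested at 300 summed counts (30.9% of all), 1 by edgeR, 0 by DESeq2 (2 of 10043 genes called in all), and 7 to 10 with a library left out: 7 without library 1 (Itga1, Itga2, Itga4, Itga7, Itgae and Itgb8 lost, Itgb3 added), 10 without library 2 (Itga7 and Itgb1 lost) and 7 without library 3 (Itga1, Itga2, Itgal, Itgb1 and Itgb2 lost). The share of all genes called then was 13.1%, 15.3% and 9.43%, with fewer samples in each test. The log2 ratio of summed alpha partners to the beta chain rested on the length and on the partners counted. With exon length it was -0.67 for Itgb1 (reversed), -1.48 for Itgb2, -0.93 for Itgb3 and -0.76 for Itgb7. With the most abundant partner alone it was 1.76e-05 for Itgb1 and -0.79 for Itgb7. Without alpha chains that have several beta partners it was -2.67 for Itgb1 (reversed), -5.54 for Itgb3 and -0.79 for Itgb7. No paired analysis was possible because there is 1 group. Chains under about 1 CPM, 3 counts in a library, are at the limit of this depth.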
